A study of Mus musculus with 35 samples.

Results

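The 38 genes described here belong to the core machinery of apoptosis and to the p53 axis: 8 genes that favor survival, 24 that favor death, 3 receptors or adaptors with either outcome, and 3 genes of the p53 axis. They were chosen by name, and every probe set that names exactly 1 of them was used. Of the 38 genes, 34 had such a probe set, with 83 probe sets among the 45101 on the array. The filter on low and invariant signals kept 65 of these probe sets, called transcripts below, for 31 genes (7 pro-survival, 20 pro-death, 2 with either outcome and 2 of the p53 axis), among 31352 transcripts kept in all. Bak1, Casp4 and Fas had a probe set but none that passed the filter, and Bcl2a1b was matched only by probe sets that name several genes. The 3 other listed genes, Bax, Ripk1 and Trp53 (p53 itself), had no probe set in the annotation used and were not analysed here.

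Motoneurons were laser-dissected from the lumbar spinal cord, 300 per mouse, and 1 array was hybridized per mouse without pooling. SOD1G93A mice (B6.Cg-Tg(SOD1-G93A)1Gur/J, hemizygous, on a C57BL/6 background) hold a high-copy transgene of mutant human SOD1 as a model of amyotrophic lateral sclerosis, and wild type (WT) littermates served as controls. Untreated mice were taken at 11 weeks of age (WT, n = 6; SOD1G93A, n = 8), before motor signs. At 15 weeks WT mice (n = 7) were compared with SOD1G93A mice that had received vehicle (n = 7) or granulocyte colony-stimulating factor (G-CSF; n = 7) from a subcutaneous minipump since week 11. The methods describe a minipump for transgenic mice only. Genotype and the pump with vehicle thus cannot be told apart at week 15. The transgenic mice were females of 1 line, and their transgene is not restricted to motoneurons.

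In the mitochondrial route to apoptosis, BH3-only proteins such as BIM and NOXA bind pro-survival BCL2 proteins and release effectors that open the outer mitochondrial membrane. Cytochrome c then assembles with APAF1 and caspase 9, and inhibitor of apoptosis proteins (IAPs) such as XIAP hold the caspases back. The transcription factor p53 induces several BH3-only genes, the cell cycle inhibitor Cdkn1a and its own antagonist Mdm2, and these pathways have long been studied in the death of motoneurons.

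Across the series, 3 arrays were set apart by name, without a fixed rule. WT mouse 6 of week 11 had a mean correlation of 0.900 with the other arrays of its group, against 0.952 or more for the rest of that group. Vehicle-treated mice 3 and 5 had 0.888 and 0.885, close to the 0.898 to 0.915 of the rest of their group. All arrays not set apart had 0.896 to 0.973, a range that holds the value of WT mouse 6. Above the array median in all mice were 11 of 11 neuronal, 7 of 10 motoneuron, 8 of 10 astrocyte, 7 of 9 oligodendrocyte and 6 of 15 microglial markers. Of the genes listed as motoneuron markers, Ret, Prph and Isl1 had means of 10.51, 9.28 and 7.90. Chat had a mean of 3.17, and the listed Slc18a2 was above the 20th centile in no mouse. The oligodendrocyte gene Mbp had a mean of 12.08, so that the dissected samples also held signal of glial genes. Of the 10 filtered astrocyte transcripts 1 was called higher in SOD1G93A mice at each week. The mean log2 level of the microglial list (15 of 16 genes measured, 11 of them above the 20th centile in all mice) ranged from 3.58 to 4.05 in WT and from 4.24 to 5.51 in vehicle-treated SOD1G93A mice of week 15, and 6 of its 13 filtered transcripts were called higher there. The 18S ribosomal control signal was 10.12 ± 0.68 (SD, n = 6) and 10.72 ± 0.62 (n = 8) in WT and SOD1G93A mice of week 11, and 13.13 ± 0.26, 12.80 ± 0.35 and 12.70 ± 0.33 (n = 7 each) in WT, vehicle and G-CSF mice of week 15. In amplified RNA of dissected cells, fewer motoneurons expressing a transcript and less transcript per motoneuron cannot be told apart.

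Most members exceeded a low cut on signal in the dissected samples of every mouse. Taking the probe set with the highest mean signal for each gene, 29 of 34 genes were above the 20th centile of all values (2.40 on the log2 scale) in all 35 mice, and 22 exceeded their array's median in every mouse. Array medians lay between 3.19 and 3.47, all above that centile, so that passing the centile alone does not show expression. Bik, for instance, passed it in 35 mice and exceeded the array median in 3. The share of all genes that pass in this way was not computed. The 22 genes included the pro-survival genes Bcl2, Bcl2l1, Bcl2l2, Mcl1, Xiap and Birc2, and the pro-death genes Cycs (cytochrome c), Aifm1 and Endog (mitochondrial proteins that act on DNA once released), Diablo (an antagonist of IAPs) and Casp9 (the initiator caspase of the mitochondrial route). Bak1, which encodes a pore-forming effector, the inflammatory caspase gene Casp4 and the death receptor gene Fas were above the array median in no mouse, with highest values of 3.29, 2.78 and 3.08. Casp8, the initiator caspase of death receptors, was above its array median in 1 of 35 mice and Casp1, an inflammatory caspase, in 3 of 35.

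**Figure D1:**
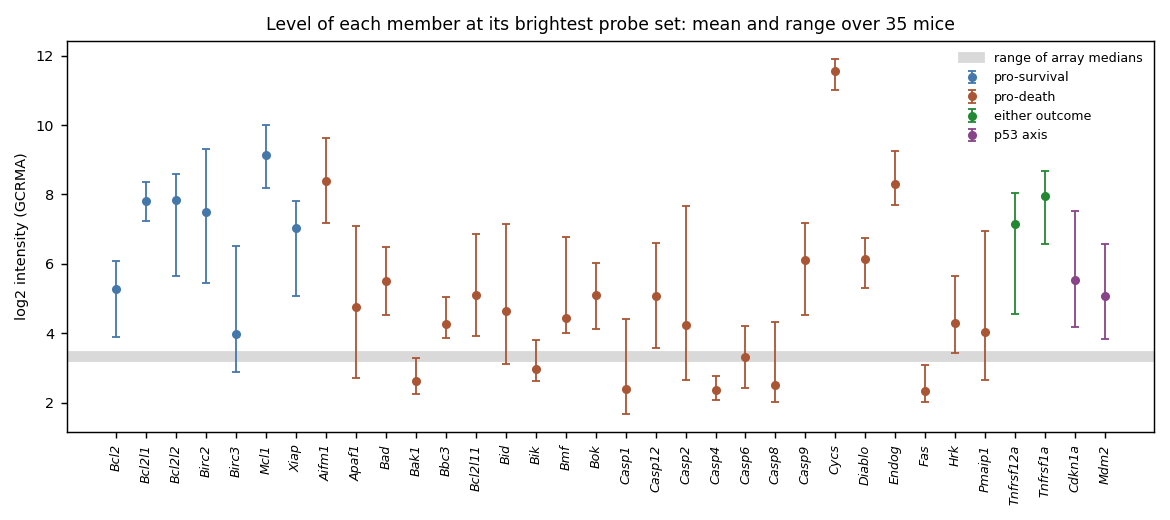
Log2 intensity (y axis) of each of the 34 member genes with a probe set, at the probe set with the highest mean, colored by side. Points are means and bars the lowest and highest of 35 mice, and the gray band spans the array medians from 3.19 to 3.47. Signals of different probe sets are not on one scale of abundance, so that each gene is to be read against the band only.

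At week 15, 5 of the 65 member transcripts were called between vehicle-treated SOD1G93A and WT mice, 2 higher and 3 lower. The p53 target Cdkn1a and 1 transcript of the pro-survival gene Bcl2l2 rose, and Casp12 and 2 transcripts of Xiap fell. This is 7.69% of the members, beside 5.91% of all 31352 transcripts (1.72% higher and 4.2% lower). Calls came from limma and needed a fold change of 1.5 or more, an adjusted p (over all transcripts) under 0.1 and an unadjusted p under 0.05. Without the adjustment, 12 of 65 members (18.5%) passed p under 0.05, 6 in each direction, beside 19.5% of all transcripts. No member separated the mice of the groups completely, as 1.5% of all transcripts did. The median difference was 0.07 over all members, -0.07 over the 25 pro-survival and 0.10 over the 32 pro-death transcripts, beside 0.02 over all transcripts (log2). Of the pro-survival transcripts 3 were called (2 lower and 1 higher), and of the pro-death transcripts 1 was called, lower. Over all transcripts, higher calls were 29.0% of the calls, and 41.1% after quantile normalization, which called the same 5 members.

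**Figure D2:**
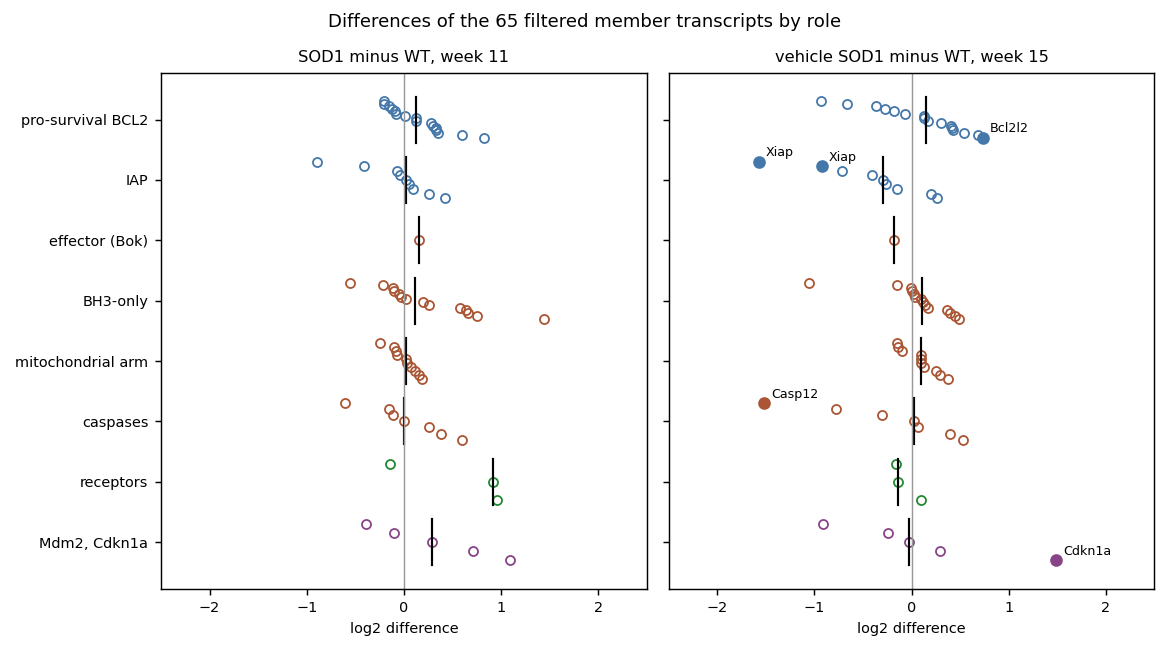
Log2 differences between SOD1G93A and WT mice (x axis) of the 65 filtered member transcripts by role (y axis), at week 11 (left) and week 15 with vehicle (right). Filled points were called, open points were not, and black bars are medians per role. The 5 called transcripts are all at week 15, with Cdkn1a at 1.49 and Casp12 and 1 of the 2 Xiap transcripts beyond -1.5.

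Cdkn1a encodes the cyclin-dependent kinase inhibitor p21, a classical target of p53. At week 15 its lowest, median and highest log2 intensities (1424638_at) were 4.17, 4.73 and 5.22 in WT mice and 4.81, 6.19 and 7.41 in vehicle-treated SOD1G93A mice. All but 1 of the vehicle-treated mice exceeded the highest WT mouse, so that the groups overlapped through that mouse alone. The difference was 1.49 (SE 0.36), a 2.81-fold increase, with an adjusted p of 0.0158 in limma. At week 11 the values were 4.44, 4.76 and 6.10 in WT and 4.54, 5.93 and 7.53 in SOD1G93A mice. The difference of 1.09 (SE 0.36) was not called there (adjusted p = 0.183), and the highest WT value belonged to mouse 6, without which the difference was 1.32. The difference between the weeks was 0.40 (SE 0.51, adjusted p = 0.706). The other Cdkn1a transcript (1421679_a_at) was on average 0.29 higher in SOD1G93A mice at both weeks, and was not called (adjusted p = 0.567 and 0.34). At week 11 it had 3.79, 3.91 and 4.18 in WT and 3.71, 4.07 and 5.52 in SOD1G93A mice. The value of 5.52 was that of mouse 8, and the other SOD1G93A mice reached no more than 4.26.

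The promoter of Cdkn1a is shown because this gene had the largest increase among members at week 15 and because p53 binding sites upstream of it are textbook examples. RefSeq gives 2 starts of Cdkn1a. In the window of 250 bases before to 50 bases after the upstream start (GRCm38.p6, chr17:29090729-29091028, + strand), the p53 decamer matched at 2 places, given in capitals. The window of the other start (chr17:29093519-29093818) held no match and is not shown.
Cdkn1a: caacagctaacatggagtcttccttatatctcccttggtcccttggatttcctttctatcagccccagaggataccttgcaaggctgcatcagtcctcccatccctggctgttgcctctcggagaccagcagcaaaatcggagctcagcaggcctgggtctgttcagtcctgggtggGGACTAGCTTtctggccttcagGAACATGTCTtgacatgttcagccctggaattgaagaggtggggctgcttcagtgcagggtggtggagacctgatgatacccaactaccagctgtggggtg
The first match ends 64 bases and the second 42 bases before the upstream start. The decamer, searched on both strands, was found in 8.36% of 32851 mouse promoters of this length and in 12% of 50 promoters of 36 member genes, and a match is a description of the letters only.

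Casp12 encodes caspase 12, a caspase of the endoplasmic reticulum in rodents. Its transcript 1449297_at had values of 5.22, 5.68 and 6.17 (lowest, median, highest) in WT and 3.57, 4.15 and 5.63 in vehicle-treated SOD1G93A mice of week 15. Mouse 1 was the only vehicle-treated mouse inside the WT range. The transcript fell by 1.52 (SE 0.30; limma adjusted p = 0.00357), or 2.87-fold. G-CSF-treated mice had 4.27, 4.44 and 5.91, of which 2 of 7 lay within the WT range. At week 11 values of 4.43, 5.54 and 6.61 in WT and 4.59, 4.89 and 5.66 in SOD1G93A mice overlapped, with a difference of -0.61 (SE 0.30, adjusted p = 0.463). The second Casp12 transcript (1418981_at) had a difference of -0.78 at week 15 and was not called (SE 0.42, adjusted p = 0.306). The calls of Cdkn1a and of Casp12 (1449297_at) at week 15 were kept in all 46 alternative settings, including the removal of any 1 mouse. Microglial and neuronal marker levels and the 18S signal also differed between the groups of week 15 (the neuronal list averaged 10.55 in WT and 10.18 in vehicle-treated mice), and their part in these results was not tested, except that with the 18S signal as a covariate the differences were 1.37 for Cdkn1a and -1.57 for Casp12.

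The Casp12 promoter is shown as that of the member with the lowest p-value at week 15 (GRCm38.p6, RefSeq, chr9:5345226-5345525, + strand). Capitals mark matches to the STAT motif TTCNNNGAA. It was among several motifs searched, and was included because the G-CSF receptor signals through STAT3. Casp12 was not called between G-CSF and vehicle.
Casp12: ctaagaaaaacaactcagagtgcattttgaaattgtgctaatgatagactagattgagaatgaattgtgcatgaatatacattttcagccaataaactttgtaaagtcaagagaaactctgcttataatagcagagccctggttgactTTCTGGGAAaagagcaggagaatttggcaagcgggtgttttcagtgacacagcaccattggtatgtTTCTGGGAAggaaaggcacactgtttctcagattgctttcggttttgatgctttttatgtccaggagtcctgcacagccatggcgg
The same 9 letters occurred at both places, ending 94 and 28 bases before the start. This motif reads alike on both strands and was present in 8.3% of all promoters and in 8.0% of the member promoters.

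The IAPs bind and inhibit caspases (XIAP) or act as ubiquitin ligases in signaling from tumor necrosis factor receptors (BIRC2 and BIRC3). Xiap was represented by 6 filtered transcripts, of which 2 were called lower at week 15. For 1437533_at the lowest, median and highest values were 7.21, 7.50 and 7.80 in WT and 5.09, 6.86 and 7.42 in vehicle-treated mice. All but 1 vehicle-treated mouse lay below the lowest WT mouse, and the difference was -0.93 (SE 0.30, adjusted p = 0.0736). The weakly detected 1456088_at had 2.07, 4.42 and 6.15 in WT and 2.12, 2.70 and 4.65 in vehicle-treated mice, with a difference of -1.57 (SE 0.47, adjusted p = 0.0538). Here 1 WT mouse lay below all vehicle-treated mice, and the WT mice of week 11 had only 1.73, 2.26 and 2.65. The other 4 Xiap transcripts differed by -0.40 to 0.20 and were not called. Birc2 had 6.91, 7.33 and 8.14 in WT and 5.44, 6.88 and 7.49 in vehicle-treated mice, a difference of -0.72 that was not called (SE 0.31, adjusted p = 0.18). Both Birc3 transcripts were uncalled at week 15, with differences of -0.15 and 0.26.

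**Figure D3:**
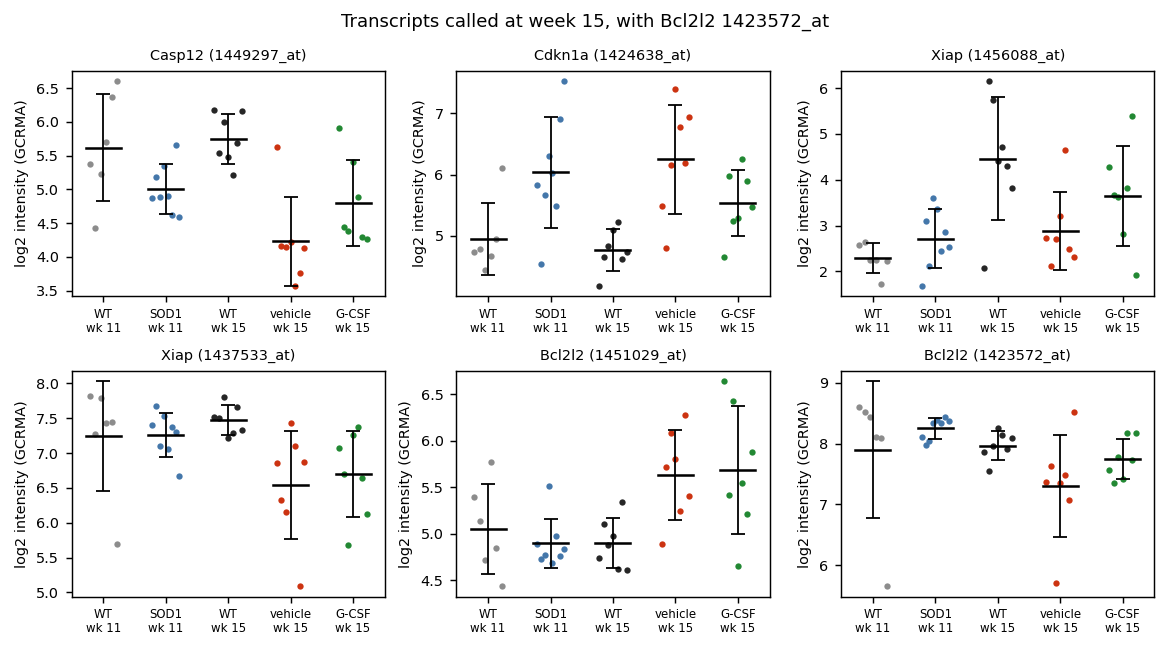
Log2 intensities per mouse (points) in the 5 groups (x axis) for the 5 transcripts called at week 15 and for Bcl2l2 1423572_at, with mean and SD (black). Cdkn1a sits above, and Casp12 and Xiap 1437533_at below, the WT mice of week 15 in all but 1 vehicle-treated mouse each, and the 2 Bcl2l2 transcripts differ in opposite directions.

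Among the BCL2 proteins that favor survival, different transcripts of the same gene went in different directions. Bcl2l2 (BCL-W) was higher by 0.74 in vehicle-treated mice at 1451029_at (SE 0.24, adjusted p = 0.0805). Values there were 4.61, 4.88 and 5.34 in WT and 4.89, 5.72 and 6.28 in vehicle-treated mice, and 5 of 7 vehicle-treated mice exceeded all WT mice. At 1423572_at, the Bcl2l2 transcript with the highest mean signal, the values were 7.55, 7.96 and 8.26 in WT and 5.70, 7.37 and 8.53 in vehicle-treated mice. This difference of -0.66 was not called (SE 0.32, adjusted p = 0.254). The remaining Bcl2l2 transcripts were 0.30 and 0.43 higher and not called. In the fit of week 15 alone, the Xiap and Bcl2l2 calls were lost (adjusted p from 0.119 to 0.165). Without WT mouse 2 or 3 of week 15 the limma call of Xiap 1456088_at was lost (adjusted p = 0.126 and 0.122). Those of Xiap 1437533_at and Bcl2l2 were lost without any 1 of 7 and 9 mice. That of Bcl2l2 was also lost without the 3 arrays set apart, with array weights and with the 18S covariate.

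Mcl1, a short-lived pro-survival protein gene, had 6 transcripts with week 15 differences from -0.94 to 0.54, none called. The lowest was 1416881_at, with 3.08, 4.50 and 5.56 in WT and 2.93, 3.45 and 4.54 in vehicle-treated mice (-0.94, SE 0.43, adjusted p = 0.225). The highest was 1456381_x_at, with 7.48, 7.77 and 8.14 in WT and 6.98, 8.48 and 9.09 in vehicle-treated mice (0.54, SE 0.24, adjusted p = 0.209). Bcl2, the founding member of the family, had 5 transcripts with differences between -0.37 and 0.68, and the one with the highest signal (1457687_at) had 5.02, 5.49 and 6.06 in WT and 3.88, 5.51 and 5.96 in vehicle-treated mice. Its difference was -0.37 (95% interval -0.96 to 0.22, adjusted p = 0.505). Bcl2l1 (BCL-XL) differed by 0.13 with an SE of 0.14 (adjusted p = 0.634). Of 18 genes with more than 1 filtered transcript, all transcripts of the gene differed in the same direction for 8 genes at week 11 and for 11 at week 15.

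**Figure D4:**
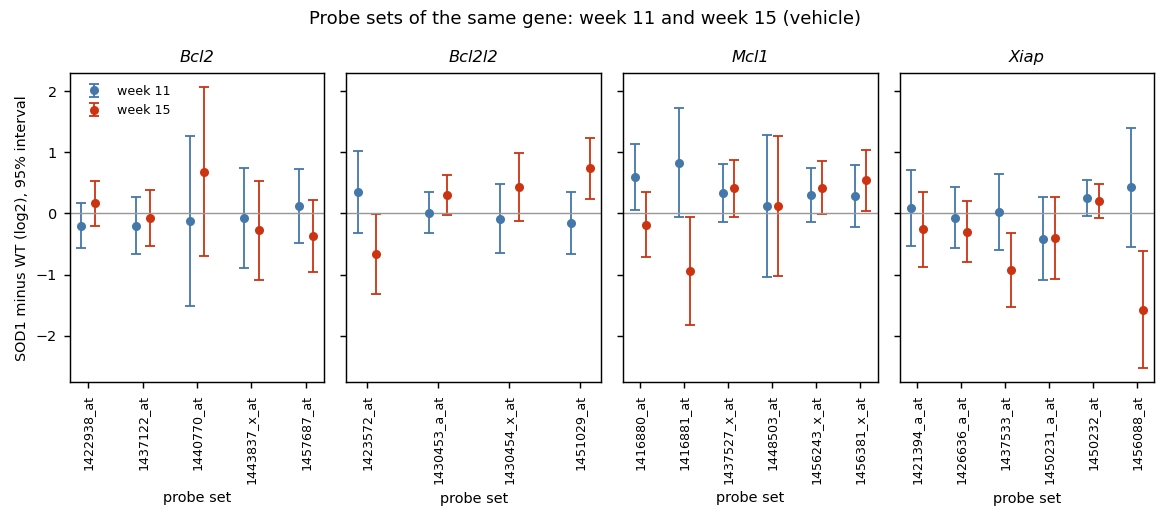
Log2 differences between SOD1G93A and WT mice (y axis) for every filtered probe set (x axis) of Bcl2, Bcl2l2, Mcl1 and Xiap, at week 11 (blue) and week 15 with vehicle (red). Bars are 95% intervals from limma, and each gene has probe sets on both sides of 0 at week 15.

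Among the pro-death members at week 15, the only call was that of Casp12. Of 14 transcripts of BH3-only genes, none was called. The sensitizers Bad (1416582_a_at; 0.45, SE 0.19, adjusted p = 0.173) and Bmf (1458325_x_at; 0.49, SE 0.18, adjusted p = 0.131) passed p under 0.05 without the adjustment. Pmaip1 (NOXA), a p53 target, had 2.81, 3.15 and 4.41 in WT and 3.16, 3.24 and 3.86 in vehicle-treated mice, with a difference that rounded to 0 (SE 0.51). Bbc3 (PUMA), another p53 target, differed by 0.01 (SE 0.15). Bcl2l11 (BIM) was lower by 1.05 at 1456005_a_at without a call (SE 0.62, adjusted p = 0.356). Bok, the only pore-forming effector that passed the filter (Bax was not analysed), differed by -0.18 (SE 0.18). The 10 transcripts of the mitochondrial arm, which covers Apaf1, Cycs, Diablo, Aifm1 and Endog, differed by -0.15 to 0.37, the largest being Diablo 1425768_at (SE 0.24, adjusted p = 0.41). Casp9 had 5.30, 5.96 and 6.45 in WT and 4.76, 5.76 and 7.19 in vehicle-treated mice, a difference of 0.07 (SE 0.30). Casp8 differed by 0.53 (SE 0.21, adjusted p = 0.15) at a signal that was below the array median in 34 of 35 mice.

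At week 11, before motor signs, limma called 0 of 65 member transcripts between SOD1G93A and WT mice, beside 1.32% of all transcripts. At an unadjusted p under 0.05, 9 of 65 members passed (13.8%, beside 11% of all transcripts), 8 higher and 1 lower in SOD1G93A mice. Tukey's comparison, the test of the study's methods, called 1 member, Mdm2. Here and below, its adjusted p was that of the F test over all 5 groups, not of the single comparison. The median difference was 0.06 over all members, 0.06 over pro-survival and 0.03 over pro-death transcripts, beside -0.01 over all transcripts. With array weights, which count arrays of higher spread for less, 8 members were called, 7 of them higher, and leaving out any 1 mouse gave 0 to 2.

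Mdm2 encodes the ubiquitin ligase that degrades p53 and is itself induced by p53. At 1423605_a_at the values were 4.23, 5.13 and 5.66 in WT and 5.46, 5.77 and 6.56 in SOD1G93A mice of week 11. Only 2 of 6 WT mice reached into the SOD1G93A range, and the difference was 0.72 (SE 0.22, adjusted p = 0.13 in limma). At week 15 the same transcript had 4.39, 4.86 and 5.21 in WT and 3.85, 4.66 and 5.17 in vehicle-treated mice, with a difference of -0.24 (SE 0.22). The other Mdm2 transcripts differed by -0.39 and -0.11 at week 11. The lowest WT value at week 11 was that of mouse 6, without which the difference was 0.54. The Mdm2 promoter is printed because this gene had the lowest p-value of the members at week 11 (GRCm38.p6, RefSeq, chr10:117710709-117711008, - strand), with the p53 decamer in capitals.
Mdm2: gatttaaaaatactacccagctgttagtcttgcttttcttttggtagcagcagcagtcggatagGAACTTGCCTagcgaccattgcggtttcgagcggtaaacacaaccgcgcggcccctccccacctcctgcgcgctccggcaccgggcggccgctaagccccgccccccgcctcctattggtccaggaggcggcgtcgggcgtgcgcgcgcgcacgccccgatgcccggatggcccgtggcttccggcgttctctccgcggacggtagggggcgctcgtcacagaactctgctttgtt
Here the match ended 177 bases before the start. As 8.36% of all promoters held this decamer, the match describes the letters only, and p53 binding there was not tested.

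Pmaip1 had 2.67, 4.01 and 4.96 in WT and 3.32, 5.61 and 6.96 in SOD1G93A mice of week 11. The difference was 1.45 (SE 0.52), the largest of the members at this age, and was not called (adjusted p = 0.227). Both groups were widely spread, and 5 of 8 SOD1G93A mice exceeded the highest WT mouse. Hrk (Harakiri), a BH3-only gene of neurons, had 3.45, 3.95 and 4.43 in WT and 3.73, 4.45 and 5.64 in SOD1G93A mice (0.64, SE 0.22, adjusted p = 0.213). Tnfrsf12a (FN14), the receptor of TWEAK, had 4.99, 7.00 and 7.62 in WT and 6.85, 7.85 and 8.05 in SOD1G93A mice at 1418571_at. Its 2 transcripts were 0.91 and 0.95 higher (adjusted p = 0.323 and 0.231), and 0.56 and 0.67 higher without WT mouse 6, which had the lowest WT value at both. Tnfrsf1a, the main tumor necrosis factor receptor of apoptosis, differed by -0.14 (SE 0.23).

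On the pro-survival side at week 11, Mcl1 1416880_at had 5.43, 5.86 and 6.25 in WT and 5.71, 6.45 and 7.07 in SOD1G93A mice, a difference of 0.60 (SE 0.26, adjusted p = 0.376). All 6 Mcl1 transcripts had differences above 0 at this age, from 0.12 to 0.83. Bcl2l1 was 0.33 higher (SE 0.14, adjusted p = 0.336). Birc3 1421392_a_at was the 1 member below 0 at an unadjusted p under 0.05, with 3.88, 4.42 and 5.15 in WT and 2.90, 3.43 and 4.61 in SOD1G93A mice (-0.90, SE 0.38, adjusted p = 0.355).

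**Figure D5:**
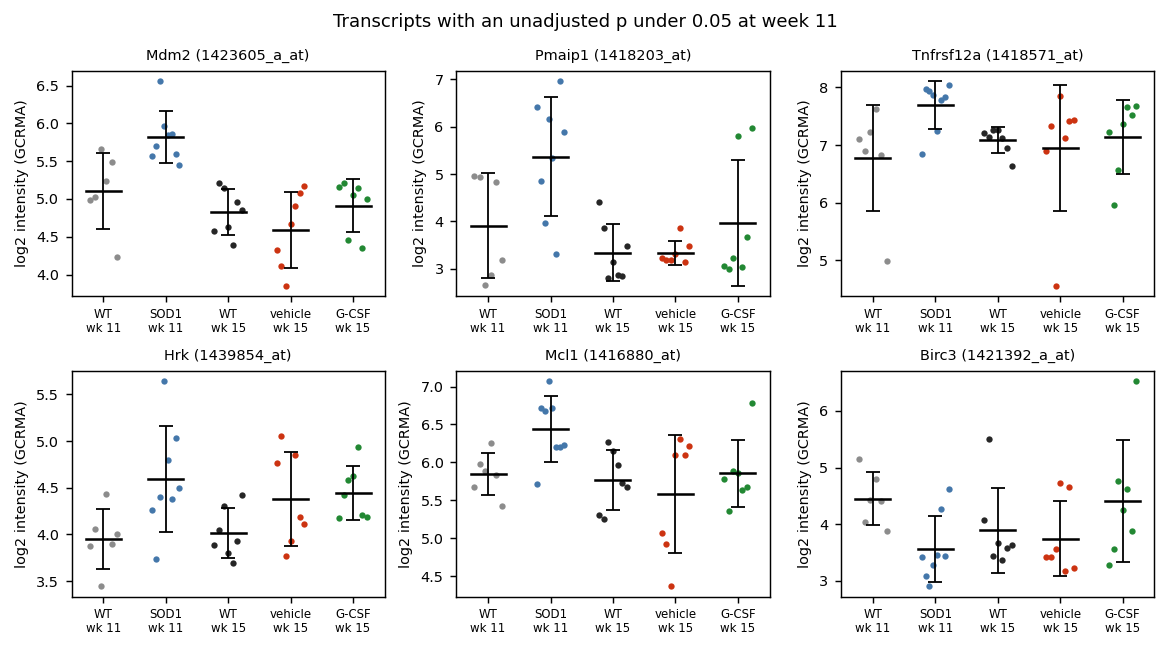
Log2 intensities per mouse (points) in the 5 groups (x axis) for Mdm2, Pmaip1, Tnfrsf12a, Hrk, Mcl1 and Birc3, with mean and SD (black). All 6 passed an unadjusted p under 0.05 at week 11 and none was called, and the WT and SOD1G93A ranges overlap in every panel.

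The SOD1 effect of week 15 was also set directly against that of week 11. None of the 65 members was called in limma, beside 2.93% of all transcripts, and 12 passed an unadjusted p under 0.05, 3 above and 9 below 0 (18.5%, beside 18.1% of all transcripts). Tukey's comparison gives no value for this difference. The lowest p-values were those of Mdm2 1423605_a_at (-0.95, SE 0.31, adjusted p = 0.111), Xiap 1456088_at (-2.0, SE 0.67, adjusted p = 0.122) and Mcl1 1416881_at (-1.76, SE 0.62, adjusted p = 0.134). For no member was a change of the SOD1 effect with age shown, and age and the pump with vehicle cannot be told apart in this contrast.

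G-CSF treatment was compared with vehicle in SOD1G93A mice of week 15. limma called 0 of 65 members, beside 0.0383% of all transcripts, and Tukey's comparison called 0 as well. Only 1 member passed an unadjusted p under 0.05 (1.54%, beside 8.3% of all transcripts), Bcl2l11 at 1456005_a_at. This transcript of BIM had 3.13, 3.48 and 3.88 in vehicle-treated and 3.60, 3.92 and 7.36 in G-CSF-treated mice. It was 1.47 higher with G-CSF (SE 0.62, adjusted p = 0.52), and the groups overlapped. The second Bcl2l11 transcript differed by 0.34 (SE 0.34).

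For the transcripts called at week 15 the G-CSF mice gave the following values. Cdkn1a had 4.65, 5.46 and 6.26 with G-CSF and was 0.71 lower than with vehicle (SE 0.36, adjusted p = 0.614). Casp12 1449297_at was 0.57 higher (SE 0.30, adjusted p = 0.635). Xiap 1437533_at was 0.15 and 1456088_at 0.76 higher (SE 0.30 and 0.47), and Bcl2l2 1451029_at was 0.05 higher (SE 0.24). None of these differences was called, and the 95% interval for Cdkn1a ran from -1.45 to 0.02.

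Against WT mice, which are shared with the vehicle comparison, limma called 0 members in G-CSF-treated mice, beside 1.13% of all transcripts. At an unadjusted p under 0.05, 10 members passed (15.4%, beside 12.7% of all transcripts), and Tukey's comparison called 2, Bcl2l2 1451029_at (0.79) and Casp12 1449297_at (-0.95). In limma these had adjusted p-values of 0.133 and 0.14. Cdkn1a was 0.78 higher than in WT mice (SE 0.36, adjusted p = 0.365) and Birc2 0.89 lower (SE 0.31, adjusted p = 0.182). Apaf1, the scaffold that activates caspase 9, was 1.03 higher at 1452870_at (SE 0.44, adjusted p = 0.304).

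WT mice of the 2 ages differed in 4 member transcripts (6.15%, beside 5.56% of all transcripts), 2 higher and 2 lower at week 15, beside 3.29% higher and 2.26% lower of all transcripts. Xiap 1456088_at rose by 2.18 (SE 0.49, adjusted p = 0.00733). Bmf 1458325_x_at, from 2.72, 2.92 and 3.08 to 3.44, 3.69 and 3.95, rose by 0.78 (SE 0.19, adjusted p = 0.0139), and the groups did not overlap, as was true of 2.99% of all transcripts. Transcripts named _x_at hold probes that can also match other genes. Cycs 1422483_a_at, from 10.06, 10.60 and 11.04 to 9.77, 9.99 and 10.15, fell by 0.63 (SE 0.20, adjusted p = 0.0679). Bid, the BH3-only protein that caspase 8 cleaves, fell by 1.26 at 1417045_at (SE 0.42, adjusted p = 0.0901), from 4.07, 5.09 and 7.14 to 3.12, 4.22 and 4.67. Age and the cohort processed cannot be told apart, and with the 18S signal as a covariate none of the 4 was called, and 36 instead of 1743 of all transcripts were. The 18S signal itself separated the WT ages, with 9.23 to 10.86 at week 11 and 12.70 to 13.50 at week 15. A covariate that follows the week so closely could hardly leave a call between the ages, so that the lost calls decide nothing. The differences with this covariate were 0.83 for Xiap, 0.12 for Bmf, -0.15 for Cycs and -2.05 for Bid, which thus was larger in size than without it (adjusted p = 0.69). The calls of Bid and Cycs were also lost when any 1 of 9 and of 7 mice was left out. Bid was not called with Tukey's comparison, with no filter or with the replicate block, and Cycs was not called after quantile normalization. The Actb control signal at its 3' end minus that at its 5' end also separated the WT ages. It was 5.45 to 6.26 at week 11 and 6.34 to 6.70 at week 15, and its part in these differences was not tested.

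Other targets and regulators of p53 came from a list of 34 genes, of which 33 had filtered transcripts (70 in all). The list was chosen with earlier results of these data known, so that its shares are a description and no test of this axis. At week 11, 2 were called higher and none lower (2.86%), beside 1.13% higher and 0.188% lower of all transcripts. Gadd45a, a stress-induced growth arrest gene, had 3.20, 6.01 and 6.67 in WT and 6.81, 8.30 and 8.66 in SOD1G93A mice, without overlap (0.705% of all transcripts had none). It rose by 2.34 (SE 0.42, adjusted p = 0.00343). Phlda3, a p53 target that restrains AKT, had 5.33, 5.64 and 5.93 in WT and 5.96, 6.32 and 6.98 in SOD1G93A mice, again without overlap, and rose by 0.72 (SE 0.17, adjusted p = 0.0372). The median of the list at week 11 was 0.09, beside -0.01 over all transcripts.

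At week 15, 2 transcripts of this list were called higher and 1 lower (4.29%, beside 5.91% of all transcripts). Sesn2, a stress-induced inhibitor of mTORC1 signaling, rose by 0.79 at 1 of its 2 transcripts (SE 0.25, adjusted p = 0.0717), and Trp53bp1, a DNA repair protein that binds p53, by 0.64 at 1 of its 6 (SE 0.21, adjusted p = 0.0839). Perp, a membrane protein gene induced by p53, fell by 1.91 (SE 0.38, adjusted p = 0.00432), from 4.76, 6.34 and 7.52 to 3.35, 4.27 and 5.41. No transcript of the list was called between G-CSF and vehicle, between G-CSF and WT, or between the SOD1 effects of the weeks. In WT mice of week 15 against week 11, 5 transcripts were called higher (7.14%, beside 5.56% of all transcripts called). These were 1 of 6 transcripts of Usp7, 2 of 3 of Gadd45b, 1 of 3 of Ccng1 and the only 1 of Ddit4.

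A second list of 48 other apoptosis genes, also chosen with earlier results known, had filtered transcripts for 35 (60 in all). Tmbim6, which encodes an anti-apoptotic membrane protein of the endoplasmic reticulum, was called higher at week 11 by 0.62 (SE 0.17, adjusted p = 0.0865), with 7.91, 8.49 and 8.88 in WT and 8.75, 8.99 and 9.52 in SOD1G93A mice. At week 15 the mitochondrial protease gene Htra2 rose by 0.64 at 1 of its 2 transcripts (SE 0.22, adjusted p = 0.0955). Bnip3, a mitochondrial BH3-like gene, fell by 0.69 (SE 0.16, adjusted p = 0.00976), and the death receptor gene Tnfrsf21 fell by 0.61 (SE 0.18, adjusted p = 0.056), with its other transcript at -1.05 and not called. The SOD1 effect was lower at week 15 than at week 11 for Tmbim6 (-0.82, SE 0.24, adjusted p = 0.0868) and for 1 of 4 transcripts of Parp1, which encodes a DNA damage sensor (-1.46, SE 0.37, adjusted p = 0.0571). The other 3 Parp1 transcripts were at -0.51, 0.21 and 0.44 and were not called. The calls of this list were 1.67%, 5% and 3.33% of its transcripts in these 3 comparisons, beside 1.32%, 5.91% and 2.93% of all transcripts, and none was called in either comparison of G-CSF. Between the WT ages 4 were called (6.67%, beside 5.56% of all transcripts), 1 of 6 transcripts of Birc6 and 1 of 3 of Bbip1 higher, and Pdcd6 and Bag1 lower. Bbip1 is on the list but encodes a subunit of the BBSome of cilia, and its other 2 transcripts were at -0.71 and -0.49 and not called.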

How the data were processed

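RNA of motoneurons of 35 mice was amplified by the authors in consecutive rounds of T7 transcription and hybridized to Affymetrix mouse whole-genome arrays. Normalization by the authors was GCRMA, run in Expression Console (version not given in the sources used here). Their table deposited holds, unfiltered, the resulting log2 intensity of every probe set. Counting depth does not apply to arrays, and the number of mice limits the precision.

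Probe sets were named through the platform annotation, with symbols updated by gene number to RefSeq (GRCm38.p6). Of 45101 probe sets, 34958 name 1 gene, 932 several and 9211 none. The filter of the methods was kept: probe sets had to exceed the 20th centile of all values (2.40) in 4 or more arrays, with an SD of no less than the 30th centile of SDs (0.241). limma (version 3.58.1, R 4.3.3) was fitted to the 31352 remaining probe sets with 1 mean per group, and 6 contrasts were taken. p-values were adjusted by the Benjamini-Hochberg method over all filtered probe sets. Differences are on the log2 scale, with standard errors from limma. The study's methods used ANOVA with Tukey's comparison and the same thresholds, which is an alternative here. In it the unadjusted p was Tukey's for the comparison, and the adjusted p was that of the F test over all 5 groups. A difference between other groups can thus help a transcript to pass. limma was also run on simulated data with independent normal noise of equal spread in all groups. That setting is simpler than these arrays, and no result here rests on it.

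The members, the lists of other p53 and apoptosis genes and the marker lists were chosen with earlier results of these data known. Values are given for members called in any contrast, for the member with the largest difference per role, and for Mdm2, Cdkn1a, Bcl2, Bak1, Casp9 and Casp12. From the other lists, the called genes are named. Members passing an unadjusted p under 0.05 were added after their values were seen.

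Replicate numbers come from the labels and did not pair mice: over 66 same-numbered pairs the mean correlation of deviations was -0.01, and 1 pair was over 0.1. No 2 arrays were identical. Mice were counted as separate samples. Alternatives were no filter, quantile normalization, fits of 1 week, array weights, a block for the replicate number, a robust prior with a trend in intensity, a floor at the 20th centile, an 18S covariate, a fold change minimum of 1.2, ANOVA with Tukey's comparison, and leaving out 3 arrays together or each mouse in turn. Promoters of 36 member genes were matched by symbol to RefSeq sequences of GRCm38.p6. They were searched on both strands for p53, AP-1, CRE, ATF4-CHOP, STAT and NF-kappaB motifs, and only p53 and STAT matches are shown. Figures were drawn with matplotlib 3.10.9 in Python 3.11.15 from pandas 2.3.3 tables.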

Additional observations from a re-analysis of the deposited data

Results flagged for a closer look

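Dixon's criterion was applied to 140 groups of mice (28 of the member transcripts, in 5 groups each). Other member transcripts named in the report, such as Cdkn1a 1421679_a_at, were not screened, so that the list below is not complete. Of the 140 groups, 20 held 1 mouse that stood far from the others (14.3%), where chance gives about 1 in 20. WT mouse 6 of week 11 accounted for 7 of these. It had 5.65 for Bcl2l2 1423572_at (others 8.09 to 8.60), 5.50 for Mcl1 1416881_at (3.23 to 4.01), and 5.69 for Xiap 1437533_at (7.27 to 7.82). It also had 4.52 for Casp9 (6.12 to 6.58), 4.99 and 5.40 for the Tnfrsf12a transcripts (6.83 to 7.62 and 6.74 to 7.32), and 6.10 for Cdkn1a 1424638_at (4.44 to 4.95).

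Among vehicle-treated mice, mouse 3 had 4.55 and 4.84 for the Tnfrsf12a transcripts (others 6.89 to 7.85 and 6.82 to 7.62). Mouse 5 had 4.65 for Xiap 1456088_at (2.12 to 3.21), mouse 2 had 5.44 for Birc2 (6.70 to 7.49), mouse 1 had 5.63 for Casp12 1449297_at (3.57 to 4.22) and mouse 7 had 4.34 for Casp8 (2.43 to 2.86). Among G-CSF-treated mice, mouse 7 had 6.78 for Mcl1 1416880_at (5.36 to 5.88) and mouse 6 had 3.12 for Casp8 (2.31 to 2.65). WT mice 1 and 2 of week 15 had 2.79 for Casp8 (2.20 to 2.34) and 5.51 for Birc3 1421392_a_at (3.36 to 4.07). Among SOD1G93A mice of week 11, mouse 1 had 8.37 for Bcl2l1 (7.59 to 7.95), mouse 4 had 5.51 for Bcl2l2 1451029_at (4.69 to 4.98) and mouse 3 had 6.56 for Mdm2 (5.46 to 5.97).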

How the results depend on the processing

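Over 46 alternative settings none of the 26 differences of single member transcripts that were recomputed changed sign. The fits of 1 week could not be made between the WT ages. Many settings leave a difference as it is, such as no filter, ANOVA or leaving out a mouse of another group. The 26 were also members called or with an unadjusted p under 0.05 in the same data. The unchanged signs therefore say little. Differences of the other members and of the other p53 and apoptosis genes were not recomputed. The calls of Cdkn1a and Casp12 at week 15 were kept in all 46 settings. Their differences were 1.30 to 1.73 and -1.75 to -1.41 when 1 mouse was left out. The number of members called at week 15 fell from 5 to 2 in the fit of week 15 alone, and was 2 to 6 when 1 mouse was left out, the lowest without WT mouse 3 of week 15. Xiap 1437533_at was not called without vehicle-treated mouse 2, 3 or 6 or WT mouse 1, 2, 3 or 6 of week 15, and Bcl2l2 1451029_at without vehicle-treated mouse 2, 3, 4 or 6 or WT mouse 1, 3, 4, 5 or 7. At week 11 the count of 0 became 8 with array weights, 1 with ANOVA and Tukey's comparison, and 0 to 2 when 1 mouse was left out. There Cdkn1a was called without SOD1G93A mouse 2, Pmaip1 without SOD1G93A mouse 6, Mdm2 without WT mouse 3 or vehicle-treated mouse 3, and Tnfrsf12a 1418572_x_at without vehicle-treated mouse 3. G-CSF against vehicle gave 0 members throughout. G-CSF against WT gave 1 with array weights, 2 without the 3 arrays apart, 2 with ANOVA, 1 with the 18S covariate and 0 to 1 when 1 mouse was left out. The difference of the SOD1 effects gave 2 with array weights, 1 with the floor and 0 to 2 when 1 mouse was left out. The WT ages gave 7 with array weights, 0 with the 18S covariate and 2 to 4 when 1 mouse was left out. Between these, Bid was not called without SOD1G93A mouse 7 of week 11, WT mouse 1, 3 or 4 of week 11 or WT mouse 1, 2, 3, 4 or 5 of week 15, and Cycs without WT mouse 2, 3, 4 or 5 of week 11 or WT mouse 2, 3 or 4 of week 15. At week 15, Mcl1 1456381_x_at was called without vehicle-treated mouse 3, Bmf without vehicle-treated mouse 4 and Bcl2l2 1423572_at without WT mouse 6 of week 11. The causes were not tested. Over all transcripts, quantile normalization moved the calls from 413 to 216 at week 11 and from 919 to 328 for the difference of the SOD1 effects, and the share of higher calls from 26.6% to 42.7% there and from 30.9% to 44.9% for G-CSF against WT. Array weights gave 1114 calls at week 11, 818 instead of 353 for G-CSF against WT and 3827 instead of 1743 between the WT ages. ANOVA, with the adjusted p of the F test over all 5 groups, gave 694 at week 11, 353 instead of 12 for G-CSF against vehicle and 774 for G-CSF against WT. Fits of 1 week gave 1050 instead of 1854 at week 15 and 155 for G-CSF against WT. Without the 3 arrays there were 52 for G-CSF against vehicle, 914 for G-CSF against WT and 202 for the difference of the SOD1 effects. When 1 mouse was left out, these counts went as low as 147 at week 11 (without WT mouse 5) and 183 for the difference of the SOD1 effects (without WT mouse 6 of week 11), and G-CSF against vehicle gave up to 48 (without vehicle-treated mouse 4).

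With the replicate number as a block, 0 members were called at week 11, 4 at week 15, 0 for G-CSF against vehicle, 0 for G-CSF against WT, 0 for the difference of the SOD1 effects and 3 between the WT ages, and over all transcripts the calls at week 11 fell to 155 and those for the difference of the SOD1 effects to 620. The numbers did not pair the mice.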
